A study of Mus musculus with 4 samples.

Results

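The interferon regulatory factors (IRFs) are a family of transcription factors that share a DNA-binding domain and switch on, or hold down, the genes that cells use in response to interferons and to microbial nucleic acids. The genes described here are Irf1, Irf2, Irf3, Irf4, Irf5, Irf7, Irf8 and Irf9, chosen by name as the rows of the count table whose NCBI gene ID maps to these symbols. All 8 were found among the 27179 genes of the table. A filter on low counts left 13580 genes for testing, of which 6 were IRF genes, since Irf4 and Irf8 had too few counts.

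The cells were MC38, a mouse colon cancer line of wild-type (WT) genotype that was kept in culture, and polyadenylated RNA was sequenced from them to ask how IFN-γ and low oxygen change gene expression in tumor cells. The 4 groups were untreated control cells under normoxia (20% oxygen), untreated control cells under hypoxia (1.5% oxygen), cells given IFN-γ under normoxia, and cells given IFN-γ under hypoxia. The paper's methods give 5 ng/mL for 24 h for most of its IFN-γ treatments, the exceptions being comparisons of dose and time, and the duration of hypoxia is not given in the sources used here. The paper's text speaks of total RNA, while the sample labels describe the selection of polyadenylated RNA. Each group is a single culture and a single library, so no value has a replicate and differences between cultures cannot be told apart from differences between conditions. Depth was nearly the same throughout, with total counts on genes of 34302971 and 34514248 for the controls (normoxia, then hypoxia) and of 34537939 and 34420642 for the IFN-γ libraries in the same order.

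As background, IFN-γ signals through its receptor and the JAK kinases to genes that carry a DNA element called GAS, among them Irf1, whose product then activates a second wave of genes. IRF9 joins STAT2 in the complex ISGF3, which binds the interferon-stimulated response element (ISRE), while IRF3, IRF5 and IRF7 wait in the cytoplasm until kinases downstream of nucleic acid sensors phosphorylate them. IRF4 and IRF8 are mostly made in lymphoid and myeloid cells, and IRF2 binds much the same DNA as IRF1 and can hold its targets down.

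The promoters of the IRF genes were searched for the letters of these elements. RefSeq gives 11 windows of 300 bases for the 8 genes on GRCm38, each from 250 bases before to 50 bases after a start site. Both strands were searched for the GAS letters TTCNNNGAA, which read the same on either strand, and for the ISRE letters, GAAA, any 2 bases and GAAA. The runs below are written 5′ to 3′ on the plus strand, which is the coding strand of all 3 genes, and the capitals mark the matches. That of Irf1 lies at chr11:53769904-53769952, that of Irf2 at chr8:46739495-46739549 and that of Irf8 at chr8:120736167-120736233, all upstream of the first exon.
Irf1: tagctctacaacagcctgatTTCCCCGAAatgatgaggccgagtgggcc
Irf2: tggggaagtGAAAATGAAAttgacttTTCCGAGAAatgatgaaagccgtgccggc
Irf8: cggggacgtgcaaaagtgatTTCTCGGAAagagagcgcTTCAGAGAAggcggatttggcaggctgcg

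In Irf1 the GAS letters stood 90 to 82 bases before the first of its 2 start sites. Irf2 held both elements in its 1 window, the ISRE letters at -241 to -232 and the GAS letters at -224 to -216, and these did not overlap. Irf8 held 2 GAS matches, at -171 to -163 and -153 to -145, before its first start site. The windows of Irf3, Irf4, Irf5, Irf7 and Irf9 held neither set of letters. Among all 32851 promoter windows of this length, 8.3% held the GAS letters and 3.44% the ISRE letters. Of the matched genes, Irf1 and Irf2 rose with IFN-γ while Irf8 was hardly counted, and Irf5, Irf7 and Irf9 rose without a match in these windows. The 1 window of Irf5 begins at chr6:29526375, inside the gene, whose RefSeq start is 29526130. The bases before that start were not searched. A match describes the letters only and says nothing on whether a factor binds there.

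**Figure D1:**
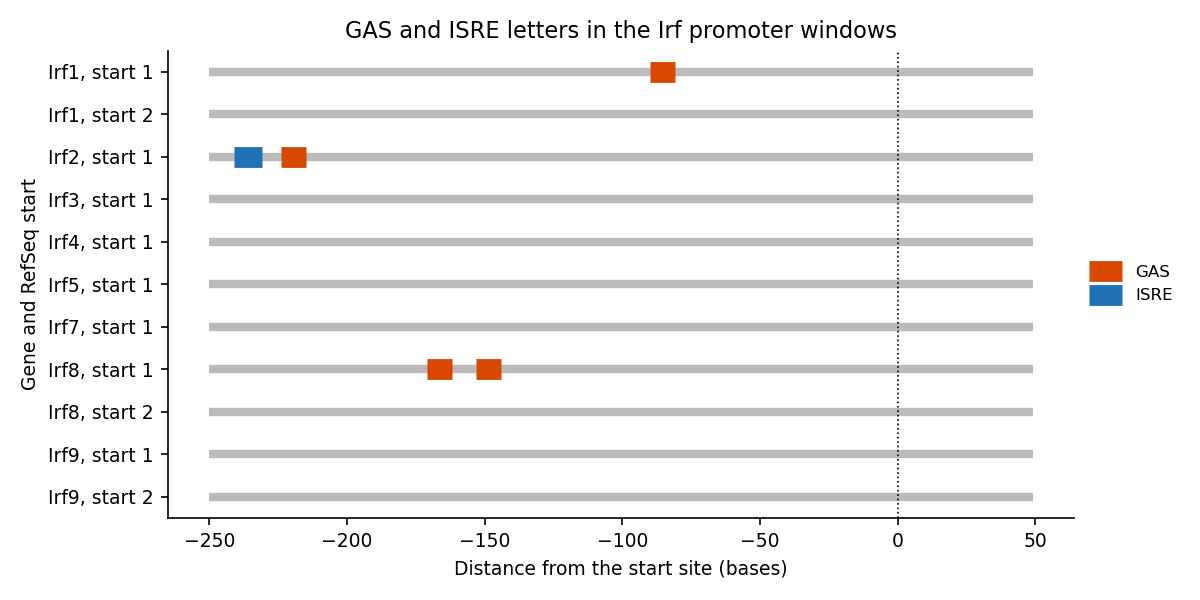
Positions of the GAS (orange) and ISRE (blue) letters in the 300-base promoter windows of the 8 Irf genes, in bases from each RefSeq start site (dotted line). Each grey bar is 1 window, and matches are seen before the first start of Irf1, Irf2 and Irf8.

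In the comparison of IFN-γ with no IFN-γ, Irf1, Irf2, Irf5, Irf7 and Irf9 rose and Irf3 did not pass the test. These are 5 of the 6 tested members and 5 of all 8, beside 4.76% of all 13580 genes raised in the same fit. Irf5, with 19 and 6 counts in the controls, passed the filter on low counts only with the help of the IFN-γ libraries. Its call therefore adds little to this count. With at least 10 counts required in every library, Irf5 was not tested and 4 IRF genes were raised. DESeq2 called 4 of the 6, without Irf5. None of the 6 was lowered (0 also by DESeq2 and at an unadjusted p under 0.05), beside 1.10% of all genes. The fit was edgeR's quasi-likelihood model with IFN-γ and oxygen as additive terms over the 4 libraries, and adjusted p-values are Benjamini-Hochberg values over all genes tested. With single cultures, its spread is only the departure of each gene from additivity, pooled over genes. Intervals given with ratios are 95% intervals of counting error and compare libraries.

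Irf1, the activator of the family that IFN-γ induces directly, had 3770 counts in the control library under normoxia, 4422 in that under hypoxia, 20118 in the IFN-γ library under normoxia and 23759 in that under hypoxia. Both IFN-γ libraries lay far above both controls, and the hypoxic library was the higher of each pair. The IFN-γ change was 5.39-fold under normoxia (log2 ratio 2.43, interval 2.38 to 2.48) and 5.42-fold under hypoxia (log2 ratio 2.44, interval 2.39 to 2.49). It was the same size at both oxygen levels within counting error, with a difference between the log2 ratios of 0.01 (interval -0.06 to 0.08). The fitted log2 change was 2.43 (standard error 0.0548), which placed Irf1 at rank 80 among the 13580 genes, counted from the most raised. Its edgeR adjusted p was below 2.23e-308, the smallest value the software resolves, and at most 0.000135 over 5 alternative fits.

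Irf1 was also the IRF gene that hypoxia raised. The log2 ratio of hypoxia to normoxia was 0.23 in the controls (interval 0.17 to 0.30) and 0.24 in the IFN-γ libraries (interval 0.21 to 0.27), a 1.18-fold change in both pairs. The fitted log2 change was 0.24 (standard error 0.0525, edgeR adjusted p = 0.000146), and over the 5 alternative fits by edgeR or DESeq2 the adjusted p ran from 0.00105 to 0.935. The highest came from 2 libraries against 2 with hypoxia as the only term, where the IFN-γ change counts as spread. The predicted gene Gm17334, which has no row in the table, overlaps Irf1 by 907 bases on the opposite strand. With both stimuli together, Irf1 was 6.37-fold above the library with neither (log2 ratio 2.67, interval 2.62 to 2.72).

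Irf2, which encodes the partner and frequent antagonist of IRF1, had 1250 and 1118 counts in the control libraries under normoxia and hypoxia, and 1872 and 2205 in the IFN-γ libraries. The IFN-γ libraries were again both above the controls, but by much less than for Irf1. The change was 1.51-fold under normoxia (log2 ratio 0.60, interval 0.49 to 0.70) and 1.99-fold under hypoxia (log2 ratio 0.99, interval 0.89 to 1.10). The additive fit gave a log2 change of 0.79 (standard error 0.0748, edgeR adjusted p = 2.52e-24, at most 0.0188 over 5 alternative fits). Hypoxia went with a lower count without IFN-γ (log2 ratio -0.16, interval -0.28 to -0.04) and a higher count with it (0.24, interval 0.15 to 0.33). The fitted hypoxia change of 0.05 (standard error 0.0746) averages over these, and its edgeR adjusted p was 0.718. Irf2 is overlapped on the opposite strand by 3 predicted genes without a row in the table.

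Since IRF1 and IRF2 compete for DNA, the ratio of their levels was taken within each library, per kilobase of the longest protein-coding transcript. It was 3.52 (interval 3.30 to 3.76) in the control library under normoxia and 4.62 (interval 4.33 to 4.94) in that under hypoxia. With IFN-γ it was 12.6 in both libraries, with intervals of 12.0 to 13.2 under normoxia and 12.1 to 13.2 under hypoxia. The hypoxic control thus stood above the normoxic control by more than counting error, and no such gap was seen between the IFN-γ libraries.

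Irf9, the DNA-binding subunit of ISGF3, had 1553 and 1446 counts in the controls and 2644 and 2582 with IFN-γ, in each case normoxia first. Both IFN-γ libraries were higher, and the pairs that differ in oxygen lay close together. The IFN-γ change was 1.72-fold under normoxia (log2 ratio 0.78, interval 0.69 to 0.87) and 1.80-fold under hypoxia (log2 ratio 0.85, interval 0.76 to 0.94). The fitted log2 change was 0.82 (standard error 0.0708, edgeR adjusted p = 1.51e-28, at most 0.00385 over 5 alternative fits). Between oxygen levels the controls gave a log2 ratio of -0.10 (interval -0.20 to 0.00), and the IFN-γ libraries gave -0.03 (interval -0.11 to 0.05). A part of this gene's sequence is not its own, because 4.24% of its 31-base words also occur in other annotated genes, most of all in Rnf31, which overlaps Irf9 by 123 bases on the same strand. Rnf31 itself had 1170, 1129, 1713 and 1751 counts in the order control normoxia, control hypoxia, IFN-γ normoxia and IFN-γ hypoxia. How reads in the shared bases were assigned is not given in the sources used here.

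Among the members that are activated by phosphorylation, Irf3 is made in most cells without a stimulus, and its counts were 1762 and 1527 in the controls and 1568 and 1453 with IFN-γ. The normoxic control was the highest and the hypoxic IFN-γ library the lowest. IFN-γ gave a fitted change of -0.11 on the log2 scale (standard error 0.0743, edgeR adjusted p = 0.609), and hypoxia gave -0.16 (standard error 0.0743, edgeR adjusted p = 0.148). Between single libraries, IFN-γ gave a log2 ratio of -0.15 under normoxia (interval -0.25 to -0.06) and of -0.06 under hypoxia (interval -0.16 to 0.05). Hypoxia against normoxia gave a log2 ratio of -0.20 in the controls (interval -0.30 to -0.10) and of -0.11 in the IFN-γ libraries (interval -0.21 to -0.00), so that counting error alone did not cover these lower counts, nor that with IFN-γ under normoxia. Irf3 overlaps Bcl2l12 by 1065 bases on the opposite strand. Bcl2l12 had between 333 and 403 counts in the 4 libraries. The libraries kept the strand, but whether the counting used it is not given in the sources used here, and without it reads from the shared bases cannot be told apart.

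Irf7, the amplifier of the type I interferon response, had 339 and 309 counts in the controls and 788 and 878 with IFN-γ. The IFN-γ libraries lay well above the controls at both oxygen levels. The change was 2.35-fold under normoxia (log2 ratio 1.23, interval 1.05 to 1.42) and 2.86-fold under hypoxia (log2 ratio 1.52, interval 1.33 to 1.71). The fitted log2 change was 1.37 (standard error 0.103, edgeR adjusted p = 2.71e-38, at most 0.00212 over 5 alternative fits), at rank 205 of all genes tested. Hypoxia against normoxia gave a log2 ratio of -0.13 in the controls (interval -0.36 to 0.10) and of 0.16 in the IFN-γ libraries (interval 0.02 to 0.30). Per kilobase, Irf7 stood at 0.175 of the level of Irf3 in the normoxic control (interval 0.155 to 0.196) and at 0.184 in the hypoxic control (interval 0.162 to 0.208). With IFN-γ the ratio was 0.456 under normoxia (interval 0.418 to 0.497) and 0.549 under hypoxia (interval 0.504 to 0.597), so Irf7 moved closer to Irf3 without reaching it. Irf7 overlaps Phrf1, which had between 3452 and 4240 counts, by 45 bases on the opposite strand.

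Irf5, a factor best known from macrophages and dendritic cells, was counted rarely, with 19 and 6 counts in the controls and 43 and 64 with IFN-γ. Both IFN-γ libraries were above both controls, though on few reads. The IFN-γ change was 2.25-fold under normoxia (log2 ratio 1.17, interval 0.38 to 2.05) and larger under hypoxia (log2 ratio 3.32, interval 2.23 to 4.93, or 2.66 with 5 counts added). The fitted log2 change was 2.10 (standard error 0.426, edgeR adjusted p = 2.78e-05). This call was lost in 2 of the 4 alternative fits that tested the gene, by DESeq2's Wald test (adjusted p = 0.128) and by edgeR with 2 libraries against 2 (adjusted p = 0.213), and the adjusted p over those 4 ran from 0.0037 to 0.213. Hypoxia went with a lower count without IFN-γ (log2 ratio -1.58, interval -3.27 to -0.28), while with IFN-γ the log2 ratio was 0.57 (interval -0.00 to 1.17). Irf5 overlaps Tnpo3 by 1045 bases on the opposite strand. Tnpo3 had far more counts, 6748 and 7240 in the controls and 7171 and 6578 with IFN-γ, in each case normoxia first. Whether reads of Tnpo3 were counted for Irf5 was not tested.

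Irf4 and Irf8, the members tied to lymphoid and myeloid cells, were at or near 0. Irf4 had 0 counts in every library, with an upper 95% Poisson limit of at most 0.108 CPM (counts scaled to library size). Irf8 had 0 and 5 counts in the controls under normoxia and hypoxia, and 2 and 12 with IFN-γ. The hypoxic library held more reads than the normoxic one in each pair, but on very few reads. With IFN-γ the log2 ratio was 2.32 (interval 0.42 to 5.79), or 1.28 with 5 counts added. Without IFN-γ the counting interval of the log2 ratio began at -0.12, so that no difference was detectable at this depth. Neither stimulus gave Irf8 a call when the filter was dropped, with an edgeR adjusted p of 0.881 for IFN-γ and 0.288 for hypoxia. The gene Gm20388 spans all of Irf8 on the same strand and has no row in the table, so reads from either cannot be told apart.

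The levels of the genes were then set side by side per kilobase of transcript. In the control library under normoxia, Irf1 led with 51.4 CPM per kilobase (interval 49.8 to 53.1), followed by Irf3 with 25.3 (24.1 to 26.5), Irf9 with 15.3 (14.5 to 16.1) and Irf2 with 14.6 (13.8 to 15.4). Irf7 stood at 4.42 (3.96 to 4.91) and Irf5 at 0.247 (0.149 to 0.386). The intervals of Irf9 and Irf2 overlapped, and those of the other neighbors in this order down to Irf5 did not. In the hypoxic control the order was the same, from Irf1 at 60.0 to Irf5 at 0.0776, with Irf9 (14.2) and Irf2 (13.0) again overlapping.

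With IFN-γ the order below Irf1 changed. Under normoxia, Irf1 reached 273 CPM per kilobase (interval 269 to 276), and Irf9 with 25.9 (24.9 to 26.9) passed Irf3 with 22.4 (21.3 to 23.5), whose interval overlapped that of Irf2 with 21.7 (20.7 to 22.7). Under hypoxia, Irf1 reached 323 (319 to 327), Irf2 with 25.7 (24.6 to 26.7) and Irf9 with 25.4 (24.4 to 26.3) overlapped, and Irf3 with 20.8 (19.7 to 21.9) came next. Irf3 thus went from the second place in both controls to a lower place with IFN-γ, without a call of its own. Irf7 rose to 10.2 under normoxia and 11.4 under hypoxia, and Irf5 to 0.556 and 0.830. Among the 20416 genes with a known length, Irf1 lay above 92.3% of them in the normoxic control and above 99.1% in the hypoxic IFN-γ library.

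**Figure D2:**
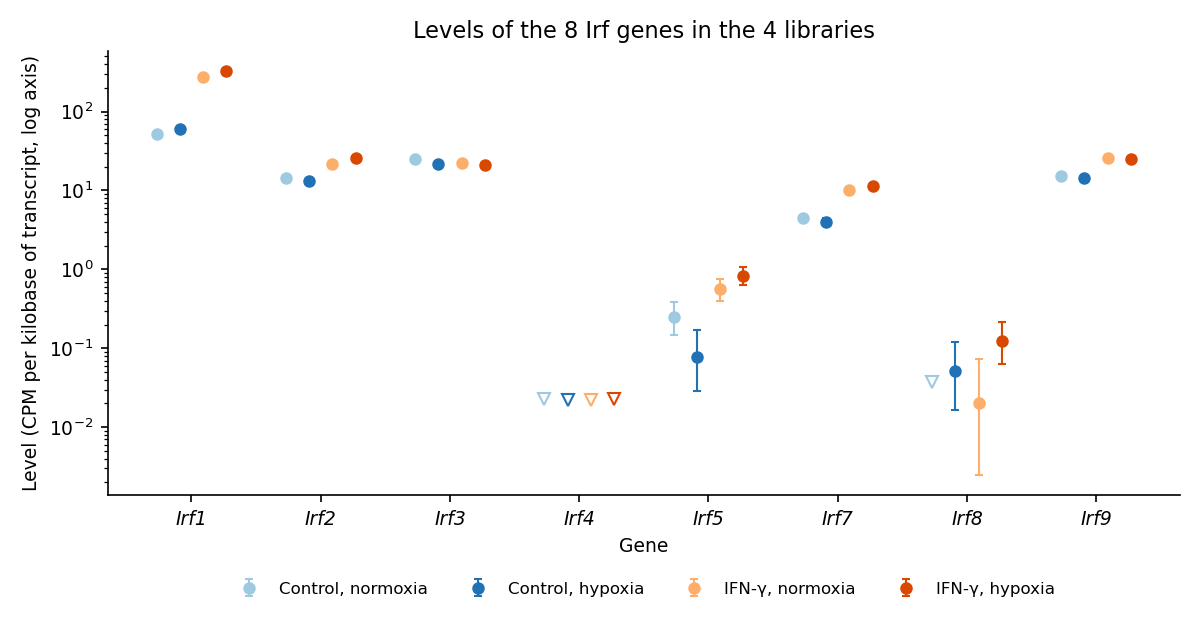
Levels of the 8 Irf genes (x axis) in CPM per kilobase of the longest protein-coding transcript on a log axis (y axis), 1 point for each of the 4 libraries, with 95% Poisson intervals of the count. Open triangles mark the upper limit of an interval where the count was 0, as in all 4 libraries for Irf4, and Irf1 is the highest in each library.

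The summed level of the 8 genes was 111.3 CPM per kilobase in the normoxic control, 113 in the hypoxic control, 353.3 with IFN-γ under normoxia and 407.1 with IFN-γ under hypoxia. Irf1 made up 46.2% of this sum in the normoxic control (interval 45.2 to 47.3) and 53.1% in the hypoxic control (interval 52.0 to 54.1). With IFN-γ its share was 77.2% under normoxia (interval 76.7 to 77.6) and 79.3% under hypoxia (interval 78.9 to 79.8). Irf3 went the other way, from 22.7% and 19.3% in the controls to 6.33% and 5.10% with IFN-γ. Irf2, Irf7 and Irf9 also held smaller shares with IFN-γ at both oxygen levels, although their own counts rose.

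**Figure D3:**
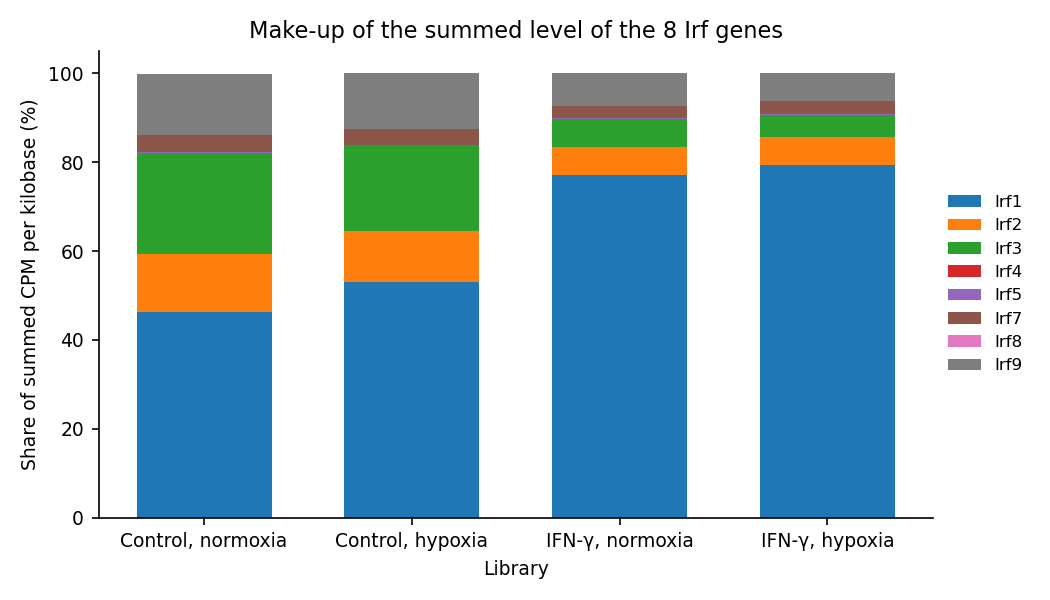
Share of each of the 8 Irf genes in their summed CPM per kilobase (y axis, percent) in each of the 4 libraries (x axis). Irf1 grows from 46.2% in the control library under normoxia to 79.3% in the IFN-γ library under hypoxia, while Irf4, Irf5 and Irf8 are too low to be seen.

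A fixed fold between single libraries was passed by fewer members with IFN-γ than the fit called, and by a different member with hypoxia. A log2 ratio of at least 1 with IFN-γ was reached by Irf1, Irf5 and Irf7 under normoxia, 3 of the 6 tested members, beside 2.92% of all tested genes raised by this much. The same 3 genes reached it under hypoxia, beside 2.82% of all tested genes, and Irf2 stopped just short of it at 0.99. Irf5 adds little to these counts, since it passed the filter on low counts only with the help of the IFN-γ libraries. With hypoxia and no IFN-γ, Irf5 alone passed the fold in either direction, 1 of 6 beside 3.53% of all tested genes. With IFN-γ present no tested IRF gene passed it with hypoxia, 0 of 6 beside 3.46%. In the additive fit, hypoxia raised 1 of the 6, Irf1, beside 8.21% of all genes, and lowered 0 of 6 beside 6.83% (0 also by DESeq2, and 1, Irf3, at an unadjusted edgeR p under 0.05). Shares of so few members are near these backgrounds, and nothing about the family can be read from its hypoxia counts.

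**Figure D4:**
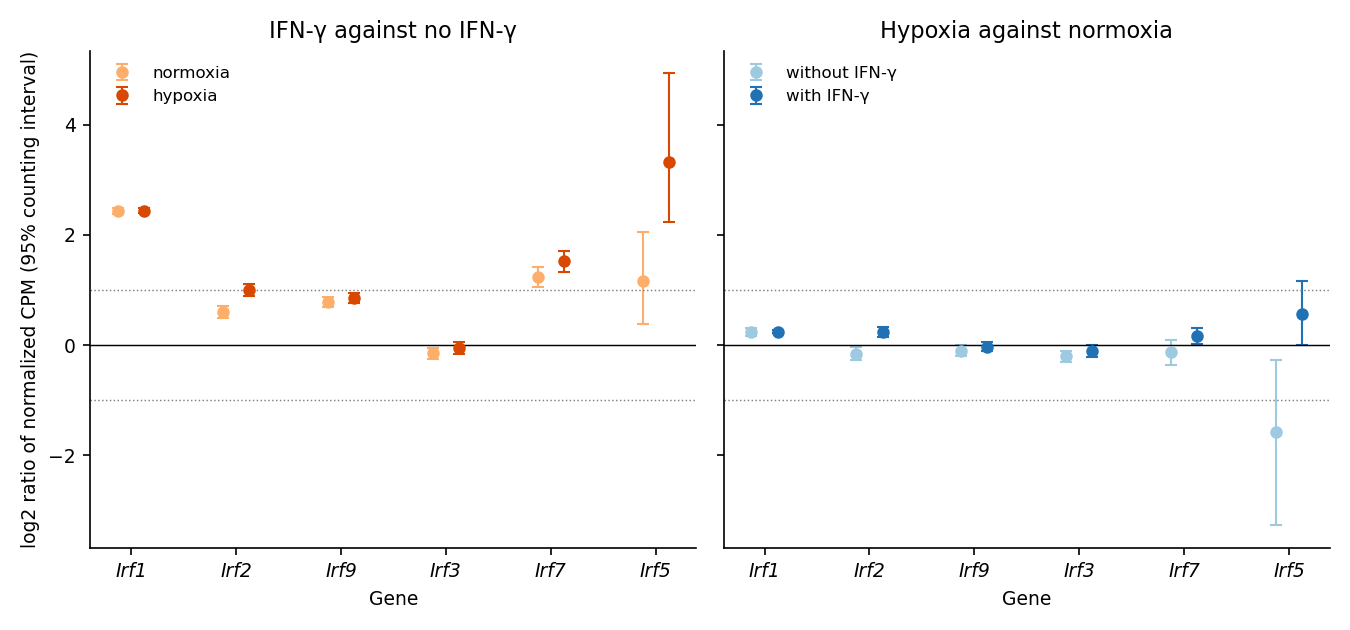
Log2 ratios of normalized CPM between 2 libraries for the 6 tested Irf genes, with 95% counting intervals, for IFN-γ against no IFN-γ (left) and hypoxia against normoxia (right), and dotted lines at a log2 ratio of 1 and -1. Irf1 lies at 2.43 and 2.44 with IFN-γ, and the hypoxia ratios of Irf2, Irf5 and Irf7 lie on opposite sides of 0 without and with IFN-γ.

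Whether IFN-γ acted on the IRF genes alike at both oxygen levels was measured by the difference between the log2 ratios under hypoxia and under normoxia. It was 0.40 for Irf2 (interval 0.25 to 0.54), 0.29 for Irf7 (interval 0.03 to 0.55), 0.10 for Irf3 (interval -0.05 to 0.24) and 0.07 for Irf9 (interval -0.06 to 0.20). Of the 5 members with at least 100 counts in every library, 2 had an interval without 0, beside 34.5% of the 10443 genes with such counts. This is a share near the background. The central 95% of those genes spanned -0.36 to 0.40, so Irf2 lay at the upper edge of the span and Irf1, Irf3, Irf7 and Irf9 lay inside it. Irf5 had a difference of 2.15 (interval 0.76 to 3.55) on its few reads, and none of these differences could be tested without replicates.

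The genes whose profile over the 4 libraries came nearest to each IRF gene were found by Euclidean distance between centred log2 values, among the 11489 genes whose mean count reached 50. For Irf1 these were Sp110 (distance 0.0935), Fam189a1 (0.181) and Phf11d (0.237). Irf2 was nearest to Mir682 (0.0776), Stat3 (0.0886) and Asap3 (0.0932), and Irf9 to Apobec3 (0.0534), Hap1 (0.0657) and Btc (0.0837). Irf7 was nearest to Serpinb9 (0.0402), which had 324, 301, 739 and 832 counts in the order control normoxia, control hypoxia, IFN-γ normoxia and IFN-γ hypoxia, then to C1ra (0.118) and H2-T10 (0.142). For Irf3 they were Btbd19 (0.00851), Gm11423 (0.0182) and Nbdy (0.0197). Distances are not compared between IRF genes, since they also depend on how large each gene's changes are. With only 4 libraries such likeness is a description.

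Upstream of the IRF genes lie the receptors and JAK kinases. Of 8 tested genes, IFN-γ raised 1 and lowered 1, beside 4.76% and 1.10% of all genes, with a median log2 change of -0.04 beside -0.01 for all tested genes. Jak2, a kinase of the IFN-γ receptor, had 1138 and 1343 counts in the controls and 1591 and 2041 with IFN-γ (fitted log2 change 0.56). Ifngr1, the ligand-binding receptor chain, fell by 0.25 (edgeR adjusted p = 0.0308). Ifnar2, a chain of the type I receptor, had a fitted change of 0.24 that did not pass the test. With hypoxia 3 of the 8 rose, beside 8.21% of all genes, Jak2 by 0.30, Jak1 by 0.29 and Ifngr1 by 0.24.

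Stat2, which encodes a partner of IRF9 in ISGF3, had 2852 and 3224 counts in the controls and 7676 and 9489 with IFN-γ, in each case normoxia first. It rose with IFN-γ by 1.51 on the log2 scale in the additive fit, and Irf9 by 0.82. Hypoxia raised Stat2 by 0.25, while Irf9 had a fitted change of -0.06.

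Activators of IRF3, IRF5 and IRF7, the nucleic acid sensors with their adaptors and kinases, had 7 raised and 0 lowered of 18 tested with IFN-γ (median 0.10), beside 4.76% and 1.10% of all genes. The largest changes were those of Dhx58 (1.21), a relative of the sensor RIG-I, and Tlr3 (1.14), a receptor for double-stranded RNA, and Tlr4 had a fitted change of -0.04. With hypoxia 1 rose, Tlr3 by 0.26, and 2 fell, Cgas by 0.24 and Myd88 by 0.21, beside 8.21% raised and 6.83% lowered of all genes, which is near background. The interferon genes that IRF3 and IRF7 switch on were nearly silent. Of 20 type I and III interferon genes 16 had 0 counts in every library and 19 had at most 3 in any, and Ifnb1 had 2, 0, 2 and 2 counts. The exception was Ifnz, with 6, 17, 11 and 10 counts in the order control normoxia, control hypoxia, IFN-γ normoxia and IFN-γ hypoxia, and neither stimulus gave it a call.

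Binding partners of the IRFs had 1 raised and 0 lowered of 6 tested with IFN-γ (median 0.14), beside 4.76% and 1.10% of all genes, and a count this small says nothing about the list. That gene was Batf2, a bZIP factor that pairs with IRF1, which had 1 and 0 counts in the controls and 193 and 258 with IFN-γ. Batf2 passed the filter on low counts only through the IFN-γ libraries. Its place among the 6 tested genes therefore followed from the change itself, and its call adds nothing to the counts. Its ratio was 130.3 under normoxia with an interval of 34.6 to 7738, and under hypoxia, against a count of 0, the lower counting limit of the ratio was 70.1. Batf, a partner of IRF4 and IRF8, had 8, 8, 22 and 14 counts and Batf3 had 55, 47, 39 and 45, and neither passed the test. Spi1, which encodes PU.1, the partner of IRF4 and IRF8 in immune cells, had 0 counts in every library, as did Irf4.

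Corepressors of the IRFs and brakes on their induction had 6 raised and 0 lowered of 11 tested with IFN-γ (median 0.22), beside 4.76% and 1.10% of all genes. Trim21, a ubiquitin ligase that acts on several IRFs, changed most, by 2.04, and Socs1, an inhibitor of the JAK kinases, came next, whereas Irf2bpl had a fitted change of -0.16. With hypoxia Irf2bpl was the gene of this list that rose, by 0.27, 1 of 11 beside 8.21% of all genes.

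Most of the listed targets of IRF1 rose with IFN-γ, as did Irf1. Of 13 tested, 12 rose and 0 fell with IFN-γ, beside 4.76% and 1.10% of all genes, with a median log2 change of 2.04. Gbp2, a guanylate-binding protein, rose by 5.20 and Ciita, the activator of MHC class II genes, by 3.97, while Vcam1 had a fitted change of -0.01. Ciita had 7 and 10 counts in the controls and 116 and 152 with IFN-γ, in each case normoxia first. It passed the filter on low counts only through the IFN-γ libraries, so its call adds nothing to the 12. With hypoxia 6 of the 13 rose, beside 8.21% of all genes, with a median of 0.20 beside 0.00 for all tested genes. Nos2, the inducible nitric oxide synthase, had 40 and 184 counts in the controls and 292 and 1099 with IFN-γ, and its fitted change with hypoxia was 1.98, against 0.24 for Irf1. Targets of IRF9 in ISGF3 had 15 raised and 0 lowered of 16 tested with IFN-γ (median 1.04), beside the same shares of all genes, and 7 raised with hypoxia (median 0.21), beside 8.21%. Ifit3 (2.10) and Ifi44 (1.65) changed most and Ifit2 (0.41) least, and Mx1 (0.98) did not pass the test. This list shares 2 genes with the others, Usp18 and Irf7 itself. Both lists hold genes chosen for their response to interferon, so their direction is no independent evidence on the IRF genes.

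**Figure D5:**
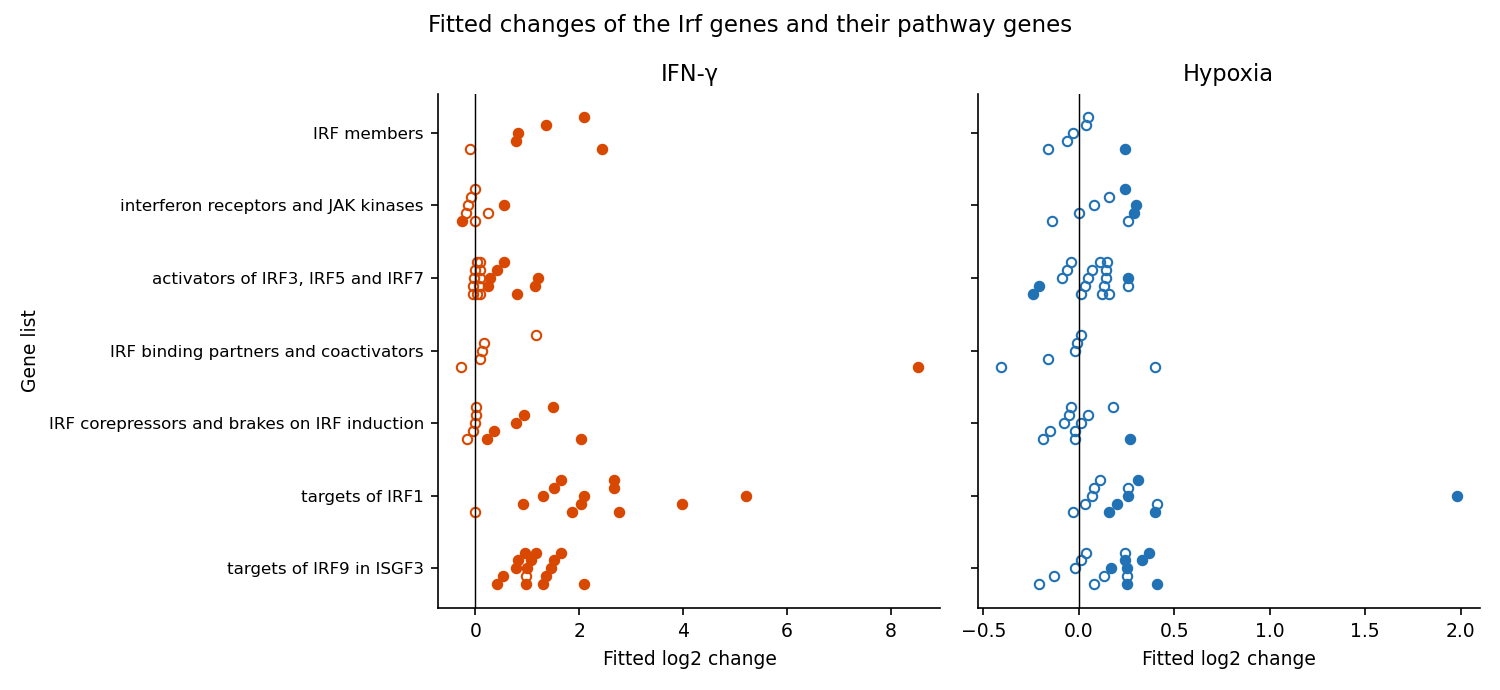
Fitted log2 changes (x axis) of the tested genes of each list (y axis) with IFN-γ (left) and hypoxia (right), 1 point a gene, filled where the edgeR adjusted p was under 0.05. With IFN-γ 5 of 6 IRF genes, 12 of 13 IRF1 targets and 15 of 16 ISGF3 targets are filled on the right of 0, and the point at 8.51 is Batf2, whose fitted value rests on control counts of 1 and 0. Irf5 and Ciita are among the filled points, and both passed the filter on low counts only with the help of the IFN-γ libraries.

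The labels of the libraries were compared with marker genes. All 9 hypoxia-response genes of the list rose with hypoxia (median 1.28), beside 8.21% of all genes, and 0 of 9 with IFN-γ, beside 4.76%, with Car9 (2.14) and Bnip3 (1.68) the largest and Vegfa (0.74) the smallest. Colon epithelium markers were low in these cells, with summed levels of 3.29, 3.04, 2.58 and 2.47 CPM over 9 genes in the order control normoxia, control hypoxia, IFN-γ normoxia and IFN-γ hypoxia. Krt8 was the most abundant of them, and Cdh1, Cdx1 and Cdx2 were at 0 in every library.

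Markers of the immune cells that carry most Irf4 and Irf8 were also measured. The 10 myeloid markers summed to 28.8, 31.7, 28.3 and 26.6 CPM in the same order, most of it from Cd14, with Adgre1 and Itgam at 0. The 12 lymphocyte markers summed to 58.0, 56.1, 54.1 and 47.4 CPM, most of it from Sdc1, with Ms4a1, Cd3g, Cd8a and Ncr1 at 0 and Ptprc, the pan-leukocyte gene, at 11, 7, 12 and 2 counts. Like Irf8, the myeloid marker Itgax, with 0, 2, 2 and 6 counts, and the lymphocyte marker Prdm1, with 2, 12, 12 and 38, were highest in the hypoxic IFN-γ library, and their part in the counts of Irf8 was not tested. Prdm1 was itself raised by both stimuli in the additive fit, on few reads and with a standard error of 0.594 for each. It passed the filter on low counts only through libraries with a stimulus, so these calls followed from the change itself. Other markers went the other way, as Cd68, with 209, 236, 212 and 170 counts, and Sdc1, with 1936, 1893, 1826 and 1584, were lowest in that library. Itgax and Cd68 were chosen after their values were seen. The 7 fibroblast markers summed to 127, 140.3, 109 and 103 CPM, most of it from Col3a1, and Col3a1 was the gene of this list that fell with IFN-γ. Each of these 4 summed marker levels was lower in the IFN-γ libraries than in the control at the same oxygen level. The sums were not tested, each rests largely on 1 gene, and the myeloid sums under normoxia lay close together. Cd14 itself went from 541 to 576 counts with IFN-γ under normoxia and from 611 to 538 under hypoxia, so no effect on a cell type can be read from the sums.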

How the data were processed

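Strand-specific poly-A libraries of the 4 cultures were sequenced on a DNBSEQ instrument. The authors deposited raw counts of reads per NCBI gene ID, made with HISAT2 per the paper's methods and with featureCounts on mm10 per the submitters' processing notes, in versions not given in the sources used here. Counts were tested with edgeR 4.0.16 in R 4.3.3 (TMM, filterByExpr at a minimum of 10 counts, additive model, 1 residual degree of freedom, threshold 0.05). The pooled coefficient of variation was 4.71%, which measures departure from additivity and not the spread between cultures. Ratios between libraries use TMM-normalized CPM with 0.5 counts added and Clopper-Pearson intervals, and shares of the summed levels use Poisson error of the 8 counts. Lengths came from GENCODE M21, and symbols, matched for 25275 of 27179 genes, and promoters from RefSeq on GRCm38.p6. Alternatives were DESeq2 1.42.0 size factors and Wald test, other filters, single-term models, total counts, 5 counts added and coding length. Genes named are all 8 IRFs, calls against a list's direction, complex partners and the 3 nearest profiles. The 2 highest and the lowest signed change with IFN-γ are also named for each list other than markers and interferon genes. For the hypoxia-response list these are the changes with hypoxia. Markers, interferon genes, overlapping genes and hypoxia changes in the remaining lists were picked outside this rule. The members and lists were chosen with earlier results of these data known. A further gene of the family and a further list are not reported here. The fit was tested on simulated data.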

Additional observations from a re-analysis of the deposited data

Results flagged for a closer look

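The hypoxia change of 3 IRF genes pointed down in the libraries without IFN-γ and up in those with it. The log2 ratio with IFN-γ exceeded that without by 0.40 for Irf2, by 0.29 for Irf7 and by 2.15 for Irf5. For Irf2 both ratios had counting intervals without 0, for Irf7 only the ratio with IFN-γ did, and for Irf5 only that without. Ratios of opposite sign were found for 3 of the 6 tested IRF genes, beside 34.2% of all 13580 tested genes, so opposite signs are common in these libraries. Among the 5 IRF genes that reached 100 counts in each library, the counting interval of the difference excluded 0 for 2, Irf2 and Irf7, beside 34.5% of the 10443 genes with such counts, which is near background. Irf5 had fewer counts and is not among them. Each direction rests on 1 culture, and the difference was not tested.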

How the results depend on the processing

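The alternatives are named here in full: DESeq2's size factors, DESeq2's Wald test, testing of all counted genes, a minimum of 10 counts per library, 2 libraries against 2 in edgeR with a single term, scaling by totals instead of TMM, 5 counts added, and coding length. No called change of an IRF gene reversed its direction under those that applied to it. Irf5 was no longer called for IFN-γ by the Wald test (log2 change 2.23) or with 2 libraries against 2 (2.10), and Irf1 was not called for hypoxia with 2 against 2 (0.24), which left 0 IRF genes raised by hypoxia. In that alternative the other stimulus counts as spread.

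Of all genes, those raised by IFN-γ were 353 by the Wald test and 239 with 2 against 2, in place of 647. Those lowered by it were 99 with DESeq2's size factors, 16 by the Wald test, 71 without a filter, 74 with at least 10 counts and 3 with 2 against 2, in place of 149. Hypoxia raised 360 by the Wald test and 150 with 2 against 2, in place of 1115, and lowered 203 and 26, in place of 927. For the counts under DESeq2's tools and the filters, the cause was not tested. Calls of genes in the lists other than the IRF genes are those of the main fit and were not compared under the alternatives.

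Coding length, which is 1.5 to 3.53 times shorter, raised the levels by its construction. In CPM per coding kilobase and in the order control normoxia, control hypoxia, IFN-γ normoxia and IFN-γ hypoxia, Irf1 had 111, 129.8, 590.2 and 699, and Irf2 had 34.8, 30.9, 51.8 and 61.2. Irf3 had 40.9, 35.2, 36.1 and 33.6, Irf7 had 7.75, 7.02, 17.9 and 20, and Irf9 had 32.5, 30.0, 54.9 and 53.8. Irf5 had 0.835 and 1.25 with IFN-γ, and Irf8 had 0.274 with IFN-γ under hypoxia. Irf2 then stood above Irf3 with IFN-γ under normoxia and slightly above Irf9 in both controls. The gap to Irf9 was small, 34.8 against 32.5 under normoxia and 30.9 against 30.0 under hypoxia, and no intervals were taken on this scale. The ratios between libraries and their differences stayed inside their counting intervals with total counts and with 5 counts added, but these intervals are wide at few counts. With 5 added, the log2 ratio of Irf8 with hypoxia and IFN-γ went from 2.32 to 1.28, and that of Irf5 with IFN-γ under hypoxia from 3.32 to 2.66. Of the nearest genes, Fam189a1, H2-T10 and Btc were not among the 3 nearest with 5 counts added. The comparison of protein sequences was not run, since no protein sequences were at hand. With 1 culture per condition, no replicate could be left out, and depth leaves Irf4, Irf5 and Irf8 with little precision.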
